A study of Rattus norvegicus with 8 samples.

Results

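The window described here covers rat chromosome 20 from base 1000000 to base 6000000 of the rn4 assembly, the broad neighbourhood of the RT1 complex, which is the rat major histocompatibility complex. Its members were chosen by position alone. They comprised every non-control probe of a promoter tiling array that lies in these 5 Mb, joined into runs wherever the gap from one probe to the next was at most 500 bp. This gave 281 runs with 3735 probes, of 27757 runs with 375449 distinct probes on the whole array. In detail, 235 of the 281 runs held at least 3 tested probes and entered the comparisons of runs, against 25622 such runs on the array. The other 46 runs held 59 probes, of which 3 passed the unadjusted probe rule given further on. Of all probes on the array 4.86% passed it, so the 3 are not a result about these runs.

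Class I molecules of the major histocompatibility complex are found on most nucleated cells and present peptides from inside the cell to cytotoxic T cells, whereas class II molecules present peptides taken up from outside to helper T cells. In neurons, class I molecules are also known for a part in the remodelling of synapses. The complex holds further genes between and beside these classes, including those of the peptide transporters Tap1 and Tap2, the immunoproteasome subunits Psmb8 and Psmb9, the complement components C2, C4a, C4b and Cfb, the cytokines Tnf, Lta and Ltb, and the heat shock proteins of the Hspa1 group. It is rich in duplicated genes, and its class I and class II genes differ more between individuals than most genes do. Cytosine methylation at a promoter is commonly found where the gene is silent, and promoters rich in CpG sites are mostly unmethylated.

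In the RefSeq annotation of the assembly GRCr8, all 36 genes of a list for this complex are placed on chromosome 20, where 67 genes carry an RT1 symbol. The array was designed on rn4, and its files hold positions but neither gene names nor probe sequences. No run could therefore be paired with a gene, and runs are given by their position.

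The DNA came from the prefrontal cortex (PFC) of 8 male Sprague-Dawley rats at postnatal day (PND) 62. The 4 Ctrl rats (C180, C182, C184 and C185) were born to dams left undisturbed, and the 4 PNS rats (C141, C142, C144 and C145) to dams restrained under bright light each day of the last week of gestation. One male of each litter was taken, and the dissected tissue mixes all cell types of the PFC, so that a change in methylation cannot be told apart from a change in the mix of cells. In this MeDIP-chip assay, sheared DNA bound by an antibody against 5-methylcytosine was labeled with Cy5 and hybridized together with the total input DNA of the same rat, labeled with Cy3. Each of 4 slides held a Ctrl rat at array position 1 and a PNS rat at position 2, so effects of the position on the slide cannot be told apart from those of the group.

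The level of a run is the mean over its probes of the log2 ratio of bound over input, after quantile normalization between arrays. It is a ratio relative to the other probes of the array and not a percentage of methylated cytosines, and a value of 0 does not stand for unmethylated DNA. The dyes were taken as the labels and methods both give them, Cy5 for bound and Cy3 for input. At each of the Ank3 locations for which the study names a direction, which lie outside the window, the sign of PNS minus Ctrl computed here was nevertheless the opposite one. Were the channels exchanged, every level and difference would change its sign, the highest and lowest runs would trade places, and the signal called input would be that of bound DNA. The deposited log2 table of the authors had a positive correlation with the ratios used here, of 0.74 to 0.81 by array. The cause of the opposite sign was not tested. On each of the 8 arrays, 67.4 to 79.9% of the window's probes had an input signal well above background, and 54.1 to 77.5% had such a bound signal. Both shares were higher than those over all probes of the same array. The arrays of Ctrl C180, Ctrl C182 and PNS C141 stood apart, with an SD of the log2 ratio over spots of 0.62 to 0.71 before normalization, against 0.99 to 1.23 on the other 5 arrays. Results were therefore also computed without these 3 rats.

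The window was unevenly covered. Runs spanned 45 to 9584 bp, with a median of 1039 bp, and held 1 to 110 probes, with a median of 10. Runs with at least 25 probes made up 11.4% of the runs in the window and 5.22% of those on the whole array, and runs with fewer than 3 probes 16.4 and 7.69%. The gap from one run to the next had a median of 6681 bp. In 68 cases it was at most 1000 bp, and the widest gap, of 491852 bp, had no probes between bases 2157110 and 2648960. Only 27.5% of the probes in the window were 60 bases long, against 42.0% on the array, and the shortest had 45 bases.

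The 235 runs had a median level of -0.088, between quartiles of -0.36 and 0.28. In comparison, the median was -0.087 for the 471 runs on the rest of chromosome 20 and -0.18 for all runs of the array. The median of the window in each rat was -0.11 in C180, 0.025 in C182, -0.081 in C184 and -0.065 in C185 among the Ctrl rats. It was 0.024 in C141, -0.12 in C142, -0.12 in C144 and -0.12 in C145 among the PNS rats. In all 8 rats the median of the window was above that of all runs, by 0.041 to 0.17, while the rest of chromosome 20 had nearly the same median as the window.

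**Figure D1:**
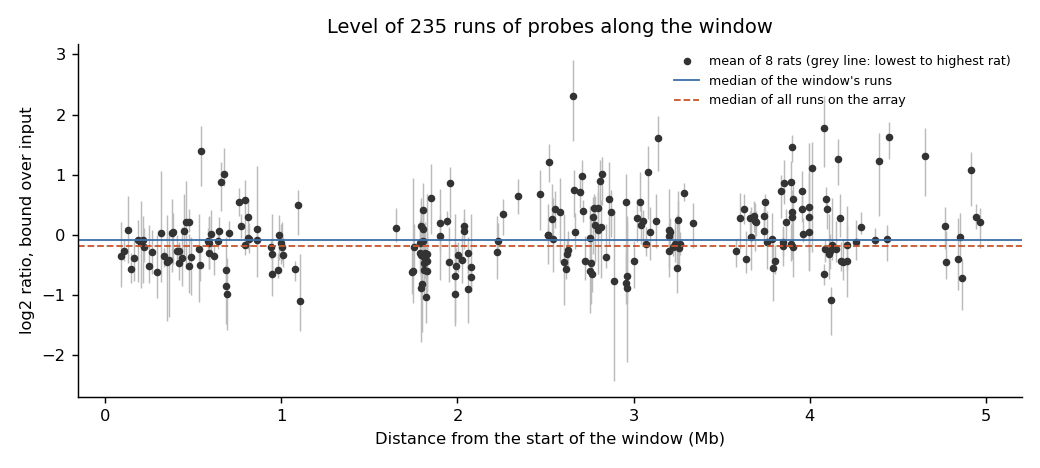
Level of the 235 runs against the distance from the start of the window in Mb. Points are means of 8 rats and grey lines run from the lowest to the highest rat. Medians of runs are higher between 2.5 and 4 Mb than before, and the gap near 1.5 Mb has no probes.

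Levels differed along the window. In steps of 500 kb, the median was between -0.33 and -0.10 in each of the first 5 steps, and it was 0.11, 0.048, 0.26, -0.11 and 0.15 in the last 5. The step from 3500 to 4000 kb after the start of the window, with 34 runs and 851 tested probes, had the highest median. Longer probes went with lower levels. Across the 235 runs, Pearson's r between the mean probe length and the level was -0.28 (Spearman's rho -0.27), and across all runs of the array it was -0.19 (rho -0.13). Runs share the arrays and the base composition of their probes, so these values are descriptions only. Within the 109 runs of about 1 kb (900 to 1400 bp), the mean level was -0.055 within 200 bp of the centre and 0.067 at 400 to 600 bp from it.

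The highest level belonged to the run at chr20:3656864-3658037, with 10 probes and a mean of 2.31, above 99.8% of all runs of the array. The ratio has the input as its denominator. No value of this run was computed from only those probes with an input well above background on every array. The part of weak input in its level was therefore not tested. The log2 ratio of the run was 2.27 in C180, 1.57 in C182, 2.45 in C184 and 2.91 in C185, and in PNS rats 1.57 in C141, 2.41 in C142, 2.47 in C144 and 2.83 in C145. Ctrl and PNS values of this run overlapped throughout, with C182 and C141 lowest. The runs at chr20:5080183-5081008 (7 probes) and chr20:5451643-5452694 (14 probes) followed, with levels of 1.78 and 1.62. The lowest level, -1.10, was found at chr20:2105794-2107035 (16 probes), followed by -1.09 at chr20:5121354-5122099 (13 probes) and -1.04 at chr20:2822636-2823299 (6 probes). None of these 6 runs was called between the groups, and their differences of PNS minus Ctrl lay between -0.19 and 0.084.

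The comparison of PNS with Ctrl rats asked whether stress before birth left a difference in promoter methylation in the adult PFC.

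Single probes were compared first, with limma, and a probe passed if its unadjusted p was 0.05 or less and its log2 difference at least 0.5 in size. In the window, 102 of 3733 probes passed with a lower ratio in PNS rats, or 2.73%, where 2.25% did so on the whole array. A higher ratio was found for 91 probes, or 2.44%, against 2.61% on the array. The smallest Benjamini-Hochberg adjusted p of any probe in limma was 0.968. The groups did not overlap at 131 probes, 81 of them lower and 50 higher in PNS rats, which is 3.51% of the probes against 3.24% on the array. These shares were near those of the array. For probes with groups apart, the split by direction was not computed over the array.

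Runs were then called by a second rule, a rank-sum test that set the t-statistics inside a run against those of every probe outside it. A false discovery rate (FDR) of at most 0.2 and at least 1 probe from the first rule were required. This rule called 29 of the 235 runs, or 12.3%, against 10.7% of all runs of the array and 10.6% of those on the rest of chromosome 20. PNS rats were lower in 24 of the called runs, 10.2% of the runs of the window against 5.57% of the array, and higher in 5, 2.13% against 5.09%. Of all called runs of the array 52.3% were lower in PNS rats, and of those in the window 82.8%. Other scalings changed this split, to 26 lower of 37 called with each array centred on its median, 15 of 21 with a loess within arrays and 16 of 16 with normexp background correction. The split over the whole array was not computed under these scalings, so the window cannot be set against it there. With median centring the median difference of all runs was -0.029, against 0.0012 in the main setting. The split itself was not tested between the window and the array.

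The call treats neighboring probes as independent, whereas their deviations from the group means had a mean correlation of 0.34 in the window (0.29 on the array). With the rat as the unit, limma on the run means gave 0 runs with an adjusted p of at most 0.2 in the window or on the array, and the smallest adjusted p was 0.9997. An unadjusted p of at most 0.05 was found for 14 runs of the window, or 5.96%, against 4.04% of all runs. With array weights in limma, 6 runs of the window, or 2.55%, had an adjusted p of at most 0.2, all lower in PNS rats, against 1.65% of all runs. Single rats moved the number of called runs. It was 63 without PNS C141, or 26.8% against 20.3% of all runs, and between 25 and 30 without any one of the Ctrl rats. Without C142, C144 or C145 it was 15, 14 or 17, and the share of the window, of 6.38, 5.96 and 7.23%, was then below that of the array, of 7.81, 6.53 and 8.87%. Without C180, C182 and C141 together, 52 runs were called, 35 of them lower, or 22.1% against 17.1%. With the slide as a block, 24 were called, 18 of them lower, which was again below the array, with 10.2 against 11.2%. A variance trend in limma's eBayes step also gave 24 called runs, 22 of them lower, or 10.2% against 10.5%. The small excess of called runs in the window over the array thus depended on the rats, on the block and on the variance model. Of the 24 runs called lower, 15 were lower in the PNS rat of slide 1, 18 on slide 2, 23 on slide 3 and 21 on slide 4, and 5 on all 4 slides.

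**Figure D2:**
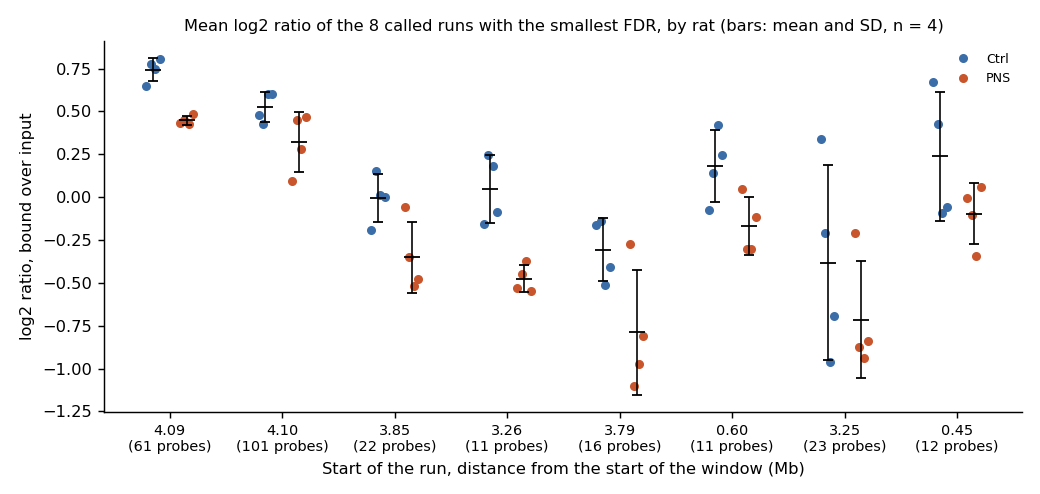
Mean log2 ratio of bound over input in each rat for the 8 called runs with the smallest FDR, labelled by the distance of their start from the start of the window in Mb. Points are rats, bars the mean and SD of 4 rats; groups are apart in the runs at 4.09 and 3.26 Mb and overlap in the other 6.

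The called run with the smallest FDR was that at chr20:5090162-5094714, a dense stretch of 61 probes. Its log2 ratio was 0.65 in C180, 0.78 in C182, 0.75 in C184 and 0.80 in C185, and 0.43 in C141, 0.45 in C142, 0.43 in C144 and 0.48 in C145. Every PNS rat lay below every Ctrl rat, and 51 of the 61 probes were lower in PNS rats. The difference was -0.30 with a standard error of 0.12 (FDR of the rank-sum test 7.36e-07). The exact two-sided permutation p was 0.0286, the smallest that the 70 assignments of 4 and 4 rats allow, and it is not adjusted for the 235 runs. Within the slides the difference was -0.22, -0.33, -0.32 and -0.32. The input signal of this run was also lower in all 4 PNS than in all 4 Ctrl rats, by 0.14 on the log2 scale, and its part in the result was not tested.

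The next run begins 748 bp further on, at chr20:5095462-5105045, and with 101 tested probes is the widest run of the window. It had values of 0.48, 0.43, 0.60 and 0.60 in C180, C182, C184 and C185, while PNS rats had 0.10, 0.45, 0.28 and 0.47 in C141, C142, C144 and C145. The groups overlapped, and C141 was the lowest rat. Here 80 of the 101 probes were lower in PNS rats, with a difference of -0.21 and a standard error of 0.14 (FDR 1.78e-06, exact permutation p = 0.114). On slide 2 the difference was 0.02, and without C141 the overall difference was -0.14.

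A second run without overlap was that at chr20:4257643-4258510 with 11 probes, all of them lower in PNS rats. Ctrl values were -0.16, 0.25, 0.18 and -0.09 in C180, C182, C184 and C185, and PNS values -0.53, -0.45, -0.37 and -0.55 in C141, C142, C144 and C145. This run had the smallest unadjusted limma p of the called runs, 0.0034, with a difference of -0.52 and a standard error of 0.14 (FDR 0.00078). The within-slide differences ranged from -0.69 to -0.37. Only 2 of the 29 called runs had an input well above background at every probe on all arrays. For the run at chr20:4257643-4258510, no difference was computed from such probes alone, so the part of weak input in its result was not tested. Together with the runs at chr20:4246012-4248248, chr20:4249685-4250912 and chr20:4261474-4262769, it lies in a stretch of called runs that were each lower in PNS rats. These 3 neighbors, of which only the first was named by rule, had differences of -0.33, -0.25 and -0.13. The first of these was -0.099 without C180, -0.53 without C141 and -0.52 without C184. The stretch was picked out after its values had been seen.

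At chr20:4845205-4847228, 21 of 22 probes were lower in PNS rats. The log2 ratio was -0.19, 0.15, 0.01 and 0.00 in C180, C182, C184 and C185, against -0.06, -0.35, -0.52 and -0.48 in C141, C142, C144 and C145. All PNS rats but C141 lay below all Ctrl rats, and on slide 1, which holds C180 and C141, the difference was 0.13. The overall difference was -0.34 (FDR 0.00028, exact permutation p = 0.0571).

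At chr20:4788990-4790153 (16 probes) the values were -0.16, -0.14, -0.51 and -0.41 in C180, C182, C184 and C185, against -0.27, -1.10, -0.97 and -0.81 in C141, C142, C144 and C145. Again C141 alone of the PNS rats was within the Ctrl range. The difference was -0.48 with an FDR of 0.0026. In the run at chr20:1600813-1601926, all 11 probes were lower in PNS rats. The difference of the run was -0.44, -0.72 and -0.36 on slides 2, 3 and 4, whereas it was 0.12 on slide 1. The input signal of this run spread widely between rats, by an SD of 0.37 within groups, and its part in the result was not tested. The last 2 runs named by FDR, chr20:4246012-4248248 (23 probes, FDR 0.0076) and chr20:1445669-1446464 (12 probes, FDR 0.041), had exact permutation p-values of 0.371 and 0.229. Their groups overlapped, and the difference of the latter was -0.33, or -0.20 without C180. Normexp, which draws ratios toward 0, left differences of -0.31 at chr20:4257643-4258510, -0.18 at chr20:4788990-4790153 and -0.15 at chr20:4845205-4847228.

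Over all 24 runs called lower, the median difference was -0.29 and the one closest to 0 was -0.088, and 443 of their 561 probes were lower in PNS rats. Of all probes on the array 51.9% were lower. The runs were called and split by direction on these same probes, so a majority of lower probes follows from the choice. The same holds for the counts of lower probes in the single called runs above. Of the 5 runs called higher, 4 lay near the start of the window. These 4 runs were picked out after their values had been seen. The largest of the 4 differences, 0.51 with a standard error of 0.22, was at chr20:1529430-1529959 (9 probes, FDR 0.085). Its values were -1.11, -0.20, -0.14 and -0.51 in C180, C182, C184 and C185, whereas C141, C142, C144 and C145 had 0.34, -0.084, 0.040 and -0.22. All PNS rats but C145 lay above all Ctrl rats, and C180 was far lower than the other rats. The other 3, at chr20:1186375-1187062, chr20:1263117-1264194 and chr20:1488476-1489396, had differences of 0.29, 0.24 and 0.24 with overlapping groups.

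Over all 235 runs of the window, called or not, 140 were lower in PNS rats, or 59.6%, against 49.7% of all runs of the array. The median difference was -0.040 in the window and 0.0012 over all runs. Within slides 1 to 4 the median of the window was 0.085, -0.17, -0.052 and -0.041, so the rats of slide 1 differed in the opposite direction.

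**Figure D3:**
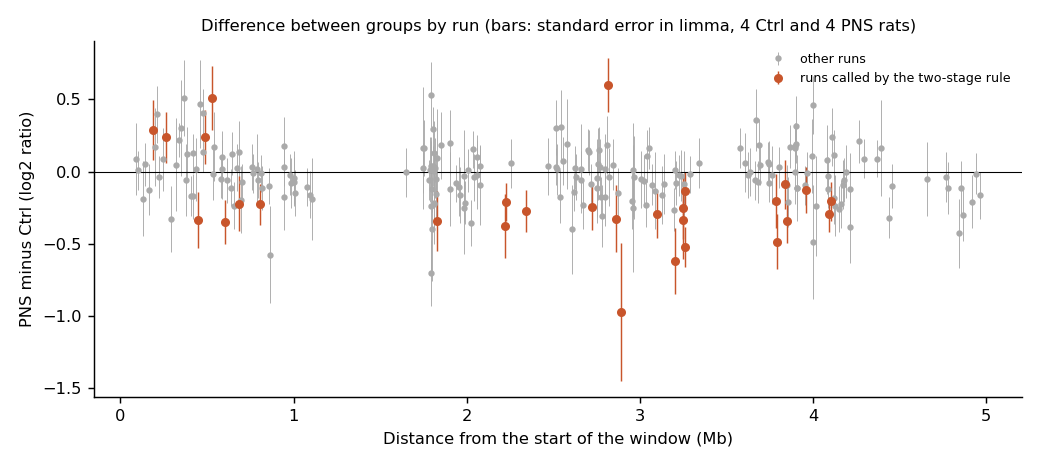
Difference of PNS minus Ctrl in the log2 ratio for each of the 235 runs, with its standard error in limma, against the distance from the start of the window in Mb. Orange points are the 29 called runs, 24 below and 5 above 0, and their range overlaps that of the grey points.

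The runs with the smallest FDR had not the largest differences. The largest mean difference, -0.97 with a standard error of 0.48, was found at chr20:3889341-3889556, a run of 3 probes (FDR 0.11). Its values were -0.25, 0.39, -0.89 and -0.42 in C180, C182, C184 and C185, against 0.31, -1.40, -1.53 and -2.43 in C141, C142, C144 and C145. C141 lay among the highest rats of the run and the other 3 PNS rats below all Ctrl rats, and the SD of the PNS rats was 1.15. The difference was -1.55 without C141 and -0.56 without C145. Of the other runs with large differences, the only one whose groups were apart was higher in PNS rats, at chr20:3813054-3813535 with 5 probes. It had -0.12, -0.72, -0.04 and 0.18 in C180, C182, C184 and C185, against 0.29, 0.51, 0.58 and 0.31 in C141, C142, C144 and C145. The difference was 0.60 with a standard error of 0.19 (FDR 0.19, exact permutation p = 0.0286). This p is fixed once the groups are apart, and the run was named for its large difference, so it is no separate test. The difference was 0.30 when only the 3 probes with bright input on all arrays were used and 0.17 with normexp.

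The remaining runs of this kind were chr20:2792859-2793086 (-0.70, 3 probes), chr20:4200138-4200356 (-0.62, 4 probes), chr20:1863788-1863913 (-0.57, 3 probes) and chr20:2791046-2791202 (0.53, 3 probes). The run at chr20:1863788-1863913 had a difference of -0.34 without C182 and of 0.093 once C180, C182 and C141 were left out. That at chr20:2791046-2791202 was 0.35 without C180. None of the probes at chr20:2791046-2791202 had an input signal well above background on all 8 arrays. In all, 6 of the 235 runs had groups that did not overlap, or 2.55%, against 3.24% of all runs. Besides the 3 already given, these were chr20:3022670-3023554, which was lower in PNS rats, and chr20:1335573-1336684 and chr20:4901286-4901635, which were higher; they were picked out after their values had been seen and were not called.

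Of the 1819 probes of the window with both channels well above background on all 8 arrays, 35 passed the first rule with groups apart, or 1.92%, against 1.62% of such probes on the array. They lay in 27 runs, and 27 of them were lower and 8 higher in PNS rats. The split by direction of such probes was not computed over the array, so the window cannot be set against it there. The largest difference, -1.40 with a standard error of 0.30, was at the probe chr20:4095357-4095402. Its log2 ratio was 0.33, 0.43, 0.55 and 0.52 in C180, C182, C184 and C185, against -0.50, -1.31, -1.44 and -0.50 in C141, C142, C144 and C145. Limma's adjusted p was 0.968. The exact permutation p, 0.0286, was fixed by the choice of probes with groups apart, so it is no separate test. Another probe of the same run, chr20:4095218-4095262, had a difference of -0.96, and the run as a whole, of 17 probes, had a difference of -0.29 and was called at an FDR of 0.17.

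The next largest probe difference, -1.05, was at chr20:5091552-5091604 within the run of 61 probes described above. Its values were 0.71, 0.36, 0.093 and 0.026 in C180, C182, C184 and C185, against -0.31, -0.96, -1.23 and -0.52 in C141, C142, C144 and C145. A difference of -0.99 was found at chr20:3617623-3617673. The probes at chr20:4848826-4848878 and chr20:4848822-4848874 overlap almost entirely and gave -0.97 and -0.95, so they are close to a repeated measurement of one site. Their runs, of 18 and 26 probes, had mean differences of -0.14 and -0.09 and were not called.

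The input channel carries total DNA without immunoprecipitation, amplified before labeling like the bound DNA. On an array, its signal at a probe depends both on the number of copies of the sequence and on how well it pairs with the probe, and the files cannot tell these apart. The spread of the log2 input between rats of a group, as a pooled SD over the run means, was compared with that of all runs of the array. In the window 40 of the 235 runs, or 17.0%, were above the limit that 5.00% of all runs exceeded, an SD of 0.33. On the rest of chromosome 20, 24 of 471 runs (5.10%) were above it. When the limit was taken within classes of input level and probe number, a choice made after the values had been seen, 37 runs of the window were above it. With only probes whose input was well above background on all 8 arrays, 21 of 196 runs were, or 10.7%. Without C180, C182 and C141, the number was 24 of 235, or 10.2%. In the bound channel, which would be the input if the channels were exchanged, 25 of 235 runs, or 10.6%, had a high spread by the same rule, against 5.94% on the rest of chromosome 20, and 10 runs had it in both channels.

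**Figure D4:**
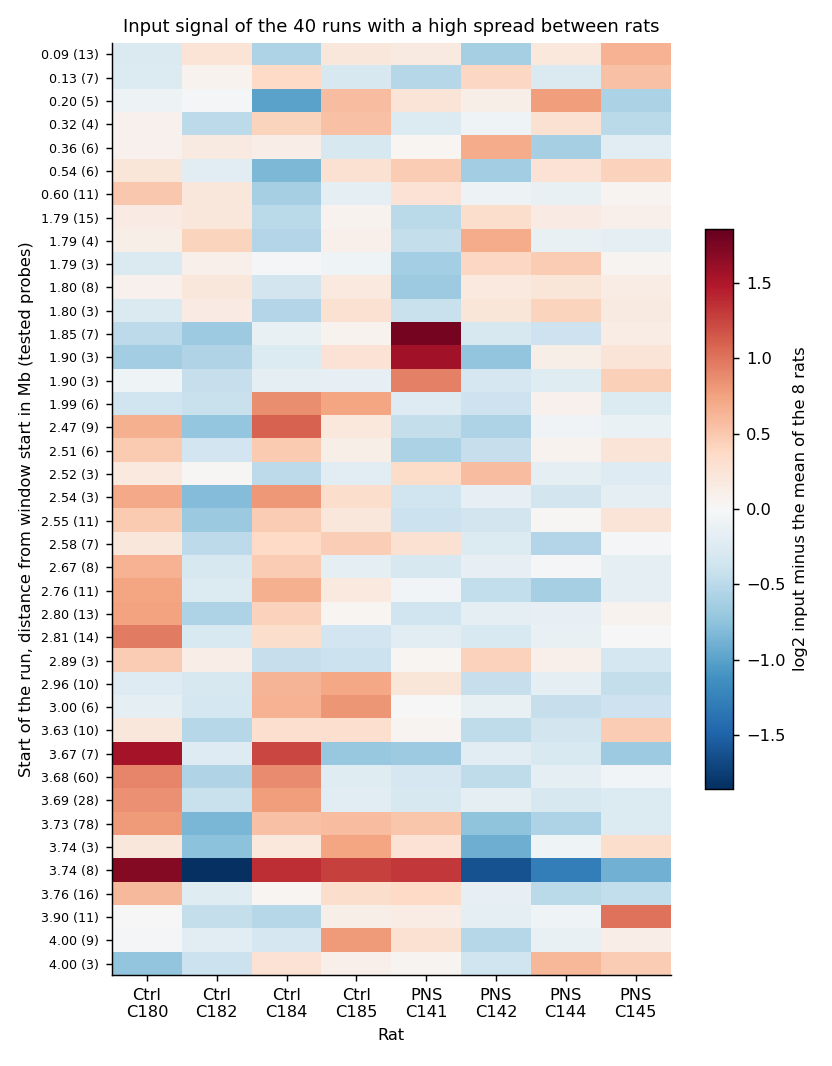
Log2 input of each rat minus the mean of the 8 rats for the 40 runs with a high spread of input, in order of position. Rows give the distance of the run's start from the start of the window in Mb and the number of tested probes; neighboring rows often have the same rats high, such as C180 and C184 at 3.67 to 3.69 Mb.

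These 40 runs held 441 tested probes. Between the lowest and the highest rat, the input differed by 0.83 to 3.56 on the log2 scale, with a median of 1.26, against a median of 0.54 over all 235 runs. Their mean input was lower than that of the other runs of the window, with medians of 8.83 and 9.77. In 5 of them no probe had an input well above background on all 8 arrays, and in 4 every probe had. The bound signal moved with the input. Over the 8 rats, the median of Pearson's r between log2 input and log2 bound signal was 0.73 in these runs and 0.41 in the other runs of the window.

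The pattern over rats was shared by neighboring runs. In the 14 cases in which 2 runs next to each other both had a high spread, Pearson's r between their inputs over the 8 rats had a median of 0.86 and ranged from 0.20 to 0.96, whereas the median for their log2 ratios was 0.18. Over all 234 pairs of neighboring runs in the window the median r of the input was 0.28, and over all 25601 pairs on the array 0.073. Neighbors share the same 8 DNA samples and arrays.

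Which rats were high changed along the window. The stretches that follow were picked out after the values had been seen. In 10 runs that started between bases 3468143 and 3810209, Ctrl C180 and Ctrl C184 were most often the highest rats, being among the top 2 in 8 and 9 of the runs. The median deviation from the mean of the 8 rats was 0.65 in C180 and 0.47 in C184, and -0.42 in C182. In the 3 runs that started between 4667471 and 4685952, C180 and C184 were the top 2 rats in all 3 runs, with median deviations of 0.91 and 0.88 and those of all other rats below 0. In contrast, C184 and C185 were the top 2 rats in both runs that started at 3956400 and 4003453, with median deviations of 0.64 and 0.77. PNS C141 was among the top 2 in the 3 runs that started between 2850547 and 2902569, with a median deviation of 1.56. In all, C180 was the highest rat in 14 of the 40 runs and C182 the lowest in 12.

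The largest spread of input in the window was at chr20:4743164-4743781, with 8 probes. Its log2 input was 10.9 in C180, 10.6 in C184 and 10.5 in C185, but 7.35 in C182, and it was 10.5 in C141, 7.59 in C142, 7.92 in C144 and 8.31 in C145. The rats thus fell into a higher set with 3 Ctrl and 1 PNS rat and a lower set with 1 Ctrl and 3 PNS rats. In the lower set, 37.5 to 62.5% of the probes had an input well above background, and in the higher set 100% did, so that the lower values rest in part on probes not well above background. The log2 ratio of the same run was 0.38, 0.68, 0.64 and 0.67 in C180, C182, C184 and C185, against 0.63, 0.44, 0.48 and 0.49 in C141, C142, C144 and C145. The ratio thus differed by 0.30 between its lowest and highest rat, while the bound signal differed by 3.57 on the log2 scale and the input by 3.56.

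**Figure D5:**
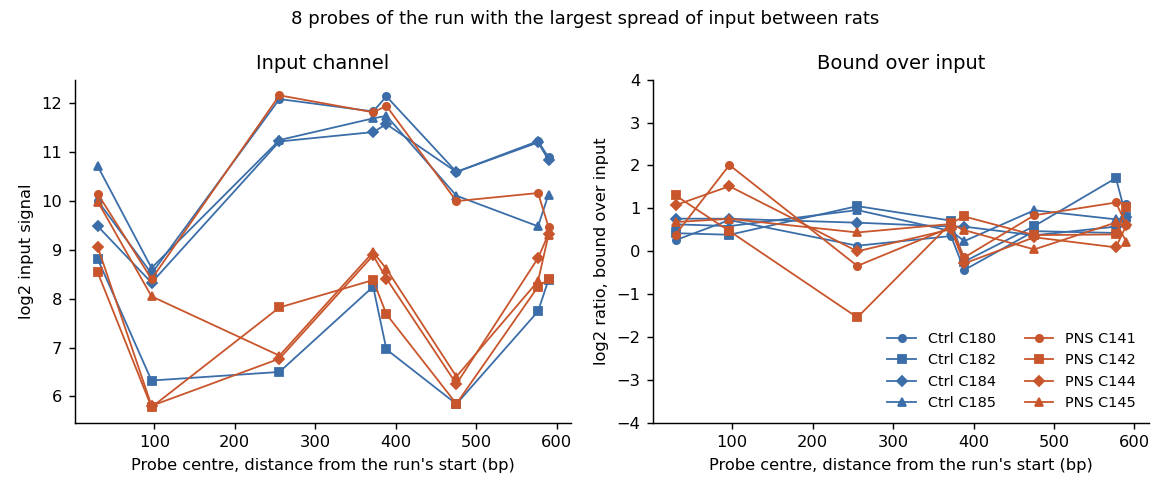
Log2 input (left) and log2 ratio of bound over input (right) at the 8 probes of the run at chr20:4743164-4743781, against the distance of the probe's centre from the start of the run in bp. Lines are rats, blue for Ctrl and orange for PNS; C182, C142, C144 and C145 are the 4 rats with the lowest input from the third probe on.

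The 8 probes of this run did not all differ alike. In 3 of them, the first, the fourth and the last, the input was well above background in all 8 rats. At the fourth, chr20:4743512-4743560, it ranged over 3.59 on the log2 scale, from 8.25 in C182 to 11.8 in C180, and the 4 rats of the lower set had at most 8.96. At the first, chr20:4743164-4743223, it ranged over 2.18, and C145 with 9.99 was within the range of the higher set. At the third, chr20:4743392-4743447, the measured signals lay furthest apart, at 12.2 in C141 and 6.50 in C182, but the input of C182, C144 and C145 was not well above background there. The run of 78 probes at chr20:4734651-4741718, which starts before it, had the same rats high. There the input was 9.53, 9.28, 9.31 and 9.24 in C180, C184, C185 and C141 and 7.89 to 8.47 in the other 4 rats, with a log2 ratio that ranged over 0.41.

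The second largest spread of input was at chr20:4667471-4667951 (7 probes), with 9.72 in C180 and 9.43 in C184 and 7.47 to 7.98 in the other 6 rats. The third was at chr20:2850547-2851489 (7 probes), with 9.36 in C141 and 6.91 to 7.73 in the others. Each thus had only 1 or 2 rats with a high input, and these were not the same rats. In neither of these runs was the input well above background on all 8 arrays at every probe.

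Between the groups, 5 runs of the window had a lower input in all 4 PNS than in all 4 Ctrl rats, or 2.13%, against 1.33% on the array, and 0 had a higher one, against 1.52%. The smallest adjusted p of the input in limma was 0.97, in the window as on the array, and 14 runs of the window, or 5.96%, had an unadjusted p of at most 0.05 against 4.62% of all runs. Only 2 of the 29 called runs, chr20:1600813-1601926 and chr20:3889341-3889556, had a high spread of input. Across the 235 runs, the difference in input and the difference in log2 ratio had a Pearson's r of -0.21 (-0.26 across all runs); the ratio has the input as its denominator.

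The log2 ratio itself spread less unusually. Here 19 of the 235 runs, or 8.09%, were above the limit, an SD of 0.51, that 5.00% of all runs exceeded, and 9 of 196 (4.59%) were with bright input probes alone. In 8 of the 19 the input also had a high spread. The largest was at chr20:2791737-2792319 (4 probes), with -1.15, 0.46, -1.26 and -1.08 in C180, C182, C184 and C185, against 0.40, -1.50, -1.11 and -1.78 in C141, C142, C144 and C145. C182 and C141 stood above the other 6 rats by more than 1 on the log2 scale. The run at chr20:3889341-3889556 came next, and then chr20:3961157-3961487 (7 probes), with -0.22, -0.40, -0.87 and -1.52 in C180, C182, C184 and C185, against 0.31, -1.23, -2.11 and -0.99 in C141, C142, C144 and C145. In each of these 3 runs C141 had the highest ratio of the PNS rats. All 3 had low levels, of -0.88, -0.78 and -0.88.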

How the data were processed

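MeDIP-chip arrays of 4 Ctrl and 4 PNS rats were analysed, grouped by the labels. The deposited intensity values are spot signals of bound DNA in Cy5 and input DNA in Cy3, which the authors extracted with Feature Extraction 10.7.3.1, with background correction and dye scaling within each array. The deposited log10 ratio of the software and the deposited log2 table of the authors served only as alternatives. The latter had a correlation of 0.74 to 0.81 with the ratios used here, and its scale was found by setting it against each array. The authors' Bayesian deconvolution was not used here.

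Of 420288 spots, the controls and a further 405 with a saturation or non-uniformity flag in at least 1 array were dropped. Log2 ratios of processed signals were quantile-normalized and compared with limma 3.58.1 in R 4.3.3, over all 375108 tested probes and all 25622 runs with at least 3 probes, without a block. The rank-sum test of runs was two-sided with Benjamini-Hochberg adjustment. Input and bound signals were quantile-normalized on the log2 scale. A high spread was one above the 95th percentile of all runs. The scripts were tested on simulated data. Arrays give no read depth, and the number of rats limits the precision.

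The named runs were up to 8 called runs with the smallest FDR, the 6 with the largest difference, the 3 highest and 3 lowest in level and the 3 with the largest spread in ratio and in input. The named probes were the 6 with the largest difference among bright probes that passed the first rule with groups apart. The window, these rules and the gene list were chosen with earlier results of these data known. The stated alternative of normexp on mean signals was run on median signals, which the files hold. No 2 arrays held identical values.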

Additional observations from a re-analysis of the deposited data

Results flagged for a closer look

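Among 58 groups of 4 rats examined (the named runs and the median of the window), 5 held a rat far from the other 3 by Dixon's criterion. In unselected groups chance meets it in about 1 of 20, but this rate does not hold here, since several runs were named for their spread between rats, among them the runs at chr20:2791737-2792319 and chr20:4743164-4743781. Their log2 ratios were -0.21 in PNS C141 at chr20:4246012-4248248, where the remaining PNS rats had -0.94 to -0.84, and 0.46 in Ctrl C182 at chr20:2791737-2792319, against -1.26 to -1.08 in the other Ctrl rats. At chr20:4743164-4743781 the ratio of Ctrl C180 was 0.38, against 0.64 to 0.68, and the log2 input of Ctrl C182 was 7.35, against 10.5 to 10.9. The median level of the window was 0.024 in PNS C141, against -0.12 in each of the other PNS rats.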

How the results depend on the processing

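The number of probes passing the first rule in the window was 49 with normexp (46 lower), 98 with bright input only, 403 with array weights, 443 without C180, C182 and C141 and 92 with a difference of at least 1, and 137 to 398 with each rat left out. The shares of window and array were 1.31 and 0.63% with normexp, 4.14 and 4.09% with bright input and 10.8 and 9.22% with array weights. They were 3.67 and 3.79% without C142, which gave 137, and 10.7 and 9.20% without C141, which gave 398. The other counts are of the window alone and do not set it apart from the array. With normexp, the split by direction was not computed over the array. The number of called runs was 16, 46 and 52 with normexp, with array weights and without the 3 rats, 9 at an FDR of at most 0.05, and 14 to 63 with each rat left out. The shares of window and array were 6.81 and 3.26% with normexp and 19.6 and 16.3% with array weights. They were 5.96 and 6.53% without C144, which gave 14, and 26.8 and 20.3% without C141, which gave 63. The 9 is a count of the window alone and does not set it apart from the array. Run means with an adjusted p of at most 0.2 numbered 6 with array weights, or 2.55% against 1.65% of all runs. They numbered 21 without the 3 rats, and 0 in the other alternatives tried, each single rat left out included. The 21 is a count of the window alone and does not set it apart from the array. Probes with groups apart numbered 1217 without the 3 rats and 176 to 527 with a rat left out, where fewer rats have to be apart. The shares of window and array were 4.715 and 4.692% without C144, which gave 176, and 14.1 and 12.1% without C141, which gave 527. The 1217 is a count of the window alone and does not set it apart from the array. The median level was 0.027 with loess, 0.089 with normexp and -0.43 in the authors' table, where that of all runs was -0.033, 0.048 and -0.65. With a rat left out it ranged from -0.097 to -0.072. The median difference, -0.040, ranged from -0.055 to -0.0075 with a rat left out and was negative in every alternative in which it was computed. Runs with a high spread of ratio numbered 9 with bright input, 12 with gaps up to 1000 bp, 11 with at least 5 probes and 5 at the 99th percentile, and 15 to 20 with a rat left out. Runs with a high spread of input numbered 21 with bright input, 24 without the 3 rats, 26 with gaps up to 1000 bp, 12 at the 99th percentile and 25 with the bound signal in place of the input, and 34 to 45 with a rat left out. The cause of these moves was not tested. Of 442 values of the named runs, 20 moved by more than the spread between rats and 25 had the opposite sign. Among the 197 of these values for called runs, 11 moved by more than that spread and 0 had the opposite sign. The authors' table, the bound signal and the limit within classes were alternatives chosen after seeing the data. A replicate block for the slide gave 217 probes (5.81% of the window against 6.14% of the array) and 24 called runs (10.2 against 11.2%), so that the shares of the window fell below those of the array.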

Other observations

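Across the array, 179 stretches of 5 Mb held at least 50 runs with 3 or more probes. The window ranked 2 among them by the share of runs with a high spread of input, with 17.0%, behind a stretch of chromosome 10 with 18.8%, and the median stretch had 4.48%. By the share of runs with a high spread of ratio it ranked 19, and by the share of called runs 55. These ranks are descriptions and were computed after the values had been seen.

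The 59 tested probes in runs too short for the comparison of runs had levels from -0.97 to 1.77, with a median of 0.18, above the median of -0.088 of the longer runs.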
